A study of Homo sapiens with 96 samples.

Results

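The 9 genes described here encode enzymes and carriers that make, use or move aspartate and glutamate: GOT1, GOT2, GLUD1, GLUL, ASS1, MDH1, MDH2, SLC25A12 and SLC25A13. They were chosen by symbol as rows of a raw count table with 44659 gene entries, in which all 9 were found, and they were followed over all 32 groups of the study. The cells were A375, an established human melanoma line with a mutated BRAF kinase. For 18 h they were given either DMSO or MAPKi, the pair of BRAF and MEK inhibitors vemurafenib and cobimetinib at 500 nM each, and every group below is called DMSO or MAPKi cells after this pretreatment. Fresh vehicle (DMSO), 100 µg/ml cycloheximide (CHX, a blocker of translation elongation), 25 µM triptolide (T, a blocker of transcription initiation) or triptolide preceded for 5 min by cycloheximide (TCHX) was then added. RNA was taken at 0, 1, 3 and 5 h. The 2 pretreatments, 4 arms and 4 times make 32 groups with 3 libraries in each, 96 in all. A375 is a single line, and the labels do not say whether replicates were separate cultures, so p-values measure only the spread between these libraries.

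Aspartate aminotransferases swap an amino group between aspartate and α-ketoglutarate, giving oxaloacetate and glutamate. GOT1 works in the cytosol and GOT2 in mitochondria, and together with the malate dehydrogenases MDH1 (cytosolic) and MDH2 (mitochondrial) and the aspartate-glutamate carriers SLC25A12 and SLC25A13 they form the malate-aspartate shuttle, which brings reducing equivalents from cytosolic NADH into mitochondria. GLUD1 turns glutamate into α-ketoglutarate and ammonia, GLUL makes glutamine from glutamate, and ASS1 uses aspartate for the synthesis of arginine, a step that is often silenced in melanoma. The study asked how MAPKi changes mRNAs, and whether translation-dependent decay takes part, in cells in which it followed aspartate and glutamate as well.

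Libraries held between 2381351 and 12520154 counts (median 7143396). Levels are given as CPM, counts scaled to a fixed library size after TMM, a method that brings libraries to a common level by the bulk of their genes. The assay primes on the poly(A) tail and counts reads near transcript ends, so reads do not scale with transcript length. SOX10, a neural crest and melanocyte factor, stood at 196 to 279 CPM in DMSO and at 306 to 377 CPM in MAPKi vehicle libraries at 0 h, while the pigment genes MLANA, TYR and TYRP1 were at most 3.57 CPM in either. Of the other pigment genes, DCT was at 47.5 to 63.4 CPM in DMSO and at 1586 to 2630 CPM in MAPKi libraries, and PMEL was at 0.636 to 1.57 and 12.7 to 17.0 CPM. The melanocyte lineage gene MITF was at 339 to 364 CPM in DMSO and at 425 to 533 CPM in MAPKi libraries. S100B, from the same lineage list, went the other way, at 291 to 317 CPM in DMSO and at 201 to 238 CPM in MAPKi libraries. The markers of other cell types PTPRC, EPCAM, PECAM1, KRT5 and DCN lay between 0 and 0.208 CPM, and KRT14 and COL1A1 reached at most 2.03 CPM. DUSP6, a feedback phosphatase that ERK induces, was at 296 to 396 CPM in DMSO and at 0.359 to 1.65 CPM in MAPKi libraries.

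Of the 9 genes, 7 passed the filter on low counts and 2 were close to unmeasured. ASS1 had 2 counts in the 96 libraries together, 1 in each of 2 MAPKi libraries, and SLC25A12 had 6 counts, spread over 3 libraries with 2 in each. Over all libraries a count of 3 corresponds to 0.00435 CPM, and ASS1 came to 0.0029 CPM, below that limit, whereas SLC25A12 came to 0.0087 CPM. Within a single library the limit of 3 counts lies at 0.24 CPM in the deepest and 1.26 CPM in the shallowest, for counting error only. With so few counts no difference in these 2 genes could be tested, and why so few reads were assigned to them was not tested. SLC25A13 was thus the only aspartate-glutamate carrier with a measurable level in these counts.

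The measured genes lie on GRCh38 as follows. GOT1 spans chr10:99396870-99430624 on the minus strand, GOT2 chr16:58707131-58734342 on the minus strand and GLUD1 chr10:87050202-87094843 on the minus strand. GLUL is at chr1:182378098-182392206 on the minus strand, MDH1 at chr2:63588609-63607197 on the plus strand, MDH2 at chr7:76048051-76067508 on the plus strand and SLC25A13 at chr7:96120220-96322147 on the minus strand. For all 9 genes the last exon of the MANE transcript, where reads of this assay gather, held no exon of another annotated gene. WDPCP, on the opposite strand, covers the last exon of MDH1 with its gene body only. Pseudogene copies are annotated for ASS1 (14), GOT2 (6), GLUD1 (4), GLUL (4) and MDH1 (2), but the count table had such rows for GLUD1 alone, with 126 counts or 0.454% of the GLUD1 counts, so how reads shared with the other copies were counted, those of ASS1 included, was not tested.

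The upstream sequences of GOT1 and GOT2 are shown because these genes differed in direction under MAPKi. That of MDH2 is shown for its motifs of interest, and the GOT1 sequence also holds such a motif. Each run is the 250 bases before the annotated start of transcription from RefSeq on GRCh38.p14, written in the direction of the gene, with motif matches in capitals. The GOT1 stretch is chr10:99430625-99430874 on the minus strand, GOT2 is chr16:58734317-58734566 on the minus strand, and MDH2 is chr7:76047856-76048105 on the plus strand.
GOT1: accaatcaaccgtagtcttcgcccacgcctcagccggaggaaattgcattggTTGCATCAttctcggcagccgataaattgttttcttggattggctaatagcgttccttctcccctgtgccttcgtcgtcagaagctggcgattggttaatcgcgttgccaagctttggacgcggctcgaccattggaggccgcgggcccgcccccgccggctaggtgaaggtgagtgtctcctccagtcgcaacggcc
GOT2: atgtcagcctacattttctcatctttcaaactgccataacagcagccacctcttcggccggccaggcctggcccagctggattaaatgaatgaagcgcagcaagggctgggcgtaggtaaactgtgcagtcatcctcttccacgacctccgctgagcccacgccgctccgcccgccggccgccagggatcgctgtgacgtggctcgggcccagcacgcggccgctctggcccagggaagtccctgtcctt
MDH2: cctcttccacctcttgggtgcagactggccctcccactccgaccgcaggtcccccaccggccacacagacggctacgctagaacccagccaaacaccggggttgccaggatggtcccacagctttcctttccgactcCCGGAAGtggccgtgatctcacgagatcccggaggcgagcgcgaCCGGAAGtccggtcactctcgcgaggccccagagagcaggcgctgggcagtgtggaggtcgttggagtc

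Motifs were searched on both strands in windows from 250 bases before to 50 after each start, of which RefSeq gave 12 for the 9 genes and 35116 in all. TTGCATCA, a form of the composite C/EBP-ATF element that ATF4 can bind, began 198 bases before the GOT1 start and occurred in 0.866% of all windows. CCGGAAG, the core bound by ETS factors, occurred at 2 places in MDH2, 113 and 69 bases before its start, and in 10.3% of all windows. CACGTG, the E-box bound by MYC and related factors, was present in the ASS1 and SLC25A13 windows and in 7.26% of all windows. The cyclic AMP element TGACGTCA was in none of the 12 windows and in 1.85% of all. These matches describe letters, and binding was not measured.

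MAPKi changed these genes in both directions. At 0 h in the vehicle arm, GOT1, MDH1 and GLUL were higher after MAPKi, by 1.72-fold, 1.54-fold and 1.66-fold, and GOT2 and GLUD1 were lower, at 0.762 and 0.809 of their DMSO level. MDH2 and SLC25A13 did not pass the test. Scaled by total counts instead of TMM, which put the median of all tested genes at 0.16 in place of 0.03, MDH2 was called higher (0.27, adjusted p = 0.000178) and GLUD1 was not called (-0.17, adjusted p = 0.278), as was also so with size factors of DESeq2 (0.19 and -0.25, adjusted p = 0.00856 and 0.0843). Thus 3 of the 7 tested genes were called higher and 2 lower by edgeR's quasi-likelihood test at an adjusted p under 0.05, beside 21.9% of all tested genes higher and 24.0% lower (by total counts, 4047 higher and 2952 lower, against 3281 and 3586). Their median log2 difference was 0.14, against 0.03 for all 14948 tested genes. Such changes were common in these cells. In RNA from bulk cultures, fewer cells of a type and less RNA per cell cannot be told apart.

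Of the transaminases, GOT1 stood at 41.1, 41.1 and 47.2 CPM in the 3 DMSO libraries and at 79.8, 60.6 and 83.0 CPM in the 3 MAPKi libraries. All MAPKi libraries were above all DMSO libraries, with replicate 2 the lowest of them, and the log2 difference was 0.79 ± 0.16 (SE, edgeR, adjusted p = 1.92e-05). GOT2 went the other way, with 279, 252 and 229 CPM in DMSO and 163, 224 and 192 CPM in MAPKi libraries. The groups again did not overlap, but the gap between 224 and 229 CPM was small, and the log2 difference of -0.39 ± 0.12 (edgeR, adjusted p = 0.00396) became -0.21 (adjusted p = 0.312) without replicate 1.

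Of the malate dehydrogenases, MDH1 read 315, 314 and 284 CPM in DMSO and 556, 369 and 476 CPM in MAPKi libraries, a log2 difference of 0.62 ± 0.13 (edgeR, adjusted p = 3.02e-05). Every MAPKi library exceeded every DMSO library. The mitochondrial MDH2 was at 294, 314 and 326 CPM in DMSO and at 336, 337 and 357 CPM in MAPKi libraries, which did not overlap either, yet the log2 difference of 0.14 ± 0.07 missed the threshold (edgeR, adjusted p = 0.0692). The carrier SLC25A13 had 103, 101 and 93.3 CPM in DMSO and 90.3, 98.6 and 97.2 CPM in MAPKi libraries, which overlapped. Its log2 difference was -0.05, with a 95% interval from -0.24 to 0.14 (0.08 when scaled by total counts), so a change of the size seen in GOT1 or MDH1 lies outside the interval.

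Of the enzymes that add or remove ammonia, GLUL had 11.8, 12.97 and 11.1 CPM in DMSO and 20.9, 17.9 and 20.7 CPM in MAPKi libraries. All MAPKi libraries were higher, with a log2 difference of 0.73 ± 0.21 (edgeR, adjusted p = 0.00262). GLUD1 was at 47.0, 41.1 and 45.8 CPM in DMSO and at 39.3, 34.1 and 34.8 CPM in MAPKi libraries. The groups did not overlap, but the log2 difference of -0.31 ± 0.13 lay near the threshold (edgeR, adjusted p = 0.0393), and it did not pass without any single replicate number: leaving out replicate 1, 2 or 3 gave -0.33, -0.32 and -0.24 with adjusted p of 0.101, 0.109 and 0.255. In all, 6 of the 7 tested genes had groups that did not overlap at 0 h, beside 53.1% of all tested genes.

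The same differences were then read over all 4 vehicle times, 12 libraries against 12, of which the 0 h libraries are part. Here 4 of the 7 genes were called higher (GOT1, GLUL, MDH1 and MDH2) and 2 lower (GOT2 and GLUD1), beside 35.8% of all tested genes higher and 33.1% lower. The MDH2 call was lost with no filter on low counts (adjusted p = 0.0648). GOT1 ran from 36.8 to 50.9 CPM (median 42.8) in DMSO and from 60.1 to 83.0 CPM (median 68.8) in MAPKi libraries, and MDH1 from 245 to 315 CPM (median 284) and from 334 to 556 CPM (median 473). These 2 genes were the ones whose 12 and 12 libraries did not overlap, a pattern found in 23.4% of all tested genes. Their log2 differences were 0.70 ± 0.08 (edgeR, adjusted p = 1.01e-12) for GOT1 and 0.65 ± 0.06 (edgeR, adjusted p = 3.27e-15) for MDH1. The p-values over the 4 times count the 12 libraries of a pretreatment as independent. Whether libraries with the same replicate number were paired was not settled, and GOT1 in MAPKi cells was lowest in replicate 2 at each time.

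GLUL ran from 7.65 to 18.9 CPM (median 14.2) in DMSO and from 17.7 to 26.4 CPM (median 21.4) in MAPKi vehicle libraries, so the ranges touched, with a log2 difference of 0.62 ± 0.10 (edgeR, adjusted p = 1.86e-07). GOT2 ran from 210 to 279 CPM (median 255) and from 163 to 244 CPM (median 181), and GLUD1 from 41.1 to 49.7 CPM (median 45.6) and from 29.6 to 41.7 CPM (median 36.8). Over the 12 libraries both mitochondrial enzymes stayed lower, by log2 differences of -0.39 ± 0.06 (edgeR, adjusted p = 1.07e-08) for GOT2 and -0.31 ± 0.06 (edgeR, adjusted p = 1.06e-05) for GLUD1. MDH2 differed by only 0.11 ± 0.03 on the log2 scale (edgeR, adjusted p = 0.0018), from a median of 323 CPM to 349 CPM. SLC25A13 had medians of 88.6 and 91.4 CPM and a log2 difference of 0.05 ± 0.05 (edgeR, adjusted p = 0.33), which passed when scaled by total counts (0.20, adjusted p = 0.000119).

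**Figure D1:**
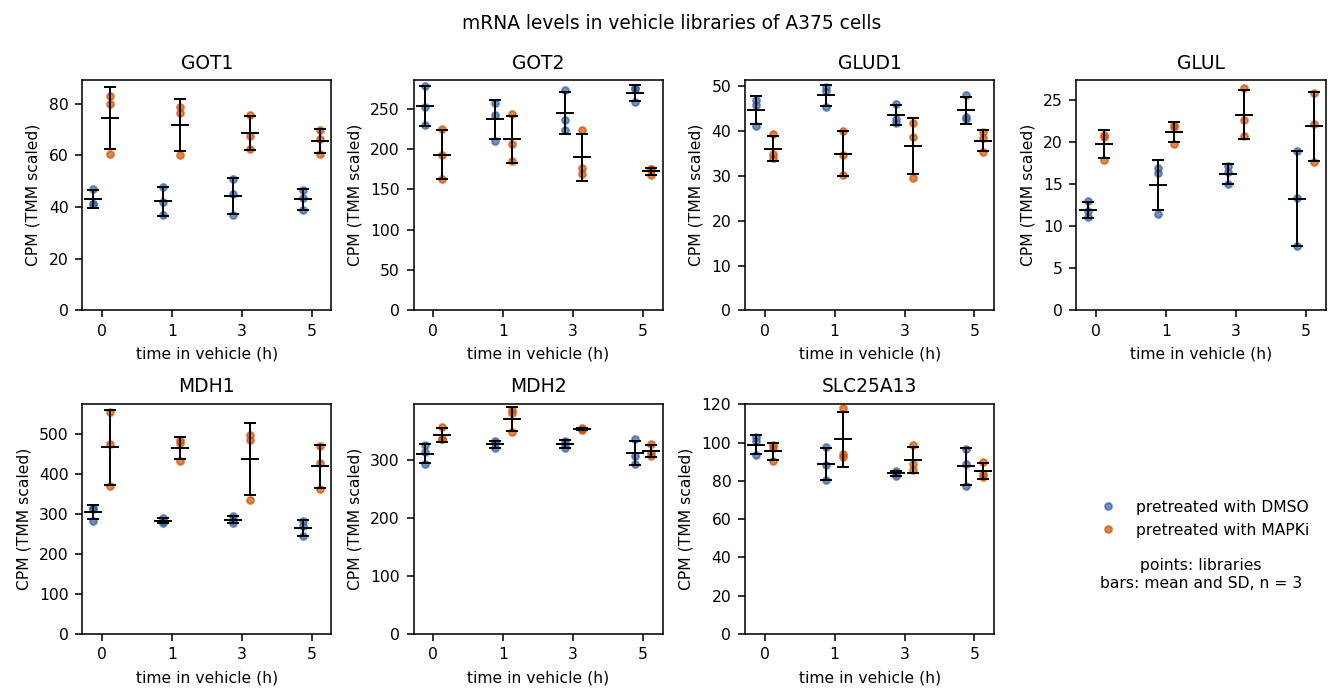
Level of each measured gene in the vehicle arm (y axis, CPM after TMM scaling, from 0) at 0, 1, 3 and 5 h (x axis) in DMSO (blue) and MAPKi (orange) cells; points are libraries, and bars give the mean and SD of 3. GOT1 and MDH1 in MAPKi cells sit above all DMSO libraries at every time, at 60.1 to 83.0 and 334 to 556 CPM.

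Within the vehicle arm the levels stayed close to those at 0 h. From 0 to 5 h none of the 7 genes was called in DMSO cells or in MAPKi cells by edgeR, and none had an unadjusted p under 0.05 or was called by DESeq2. Of all tested genes, 1.06% changed in DMSO cells and 3.34% in MAPKi cells. The differences in MAPKi cells ranged from -0.18 (GOT1) to 0.15 (GLUL) on the log2 scale, with intervals that reached 0.54 for GLUL, so a moderate change in GLUL, the tested gene with the fewest counts, could have gone unseen.

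The ratio of cytosolic to mitochondrial isoenzyme counts within a library does not depend on how libraries are scaled. In vehicle libraries the GOT1 to GOT2 ratio ran from 0.135 to 0.228 (median 0.172) in DMSO cells and from 0.247 to 0.490 (median 0.391) in MAPKi cells, with no overlap between 12 and 12 libraries. Over all arms and times, the ratio ran from 0.121 to 0.277 in the 48 DMSO libraries and from 0.184 to 0.492 in the 48 MAPKi libraries. The highest DMSO value, -1.85 on the log2 scale, was replicate 3 of the CHX arm at 5 h. The lowest MAPKi value came from replicate 2 of the triptolide arm at 0 h, at -2.44 on the log2 scale beside -1.34 and -1.16 in the other replicates of its group. The MDH1 to MDH2 ratio ran from 0.803 to 1.07 (median 0.879) in DMSO and from 0.945 to 1.66 (median 1.29) in MAPKi vehicle libraries, which overlapped. In the TCHX arm of MAPKi cells at 5 h this ratio differed among its own libraries, with log2 values of 0.32, -0.21 and -0.70.

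**Figure D2:**
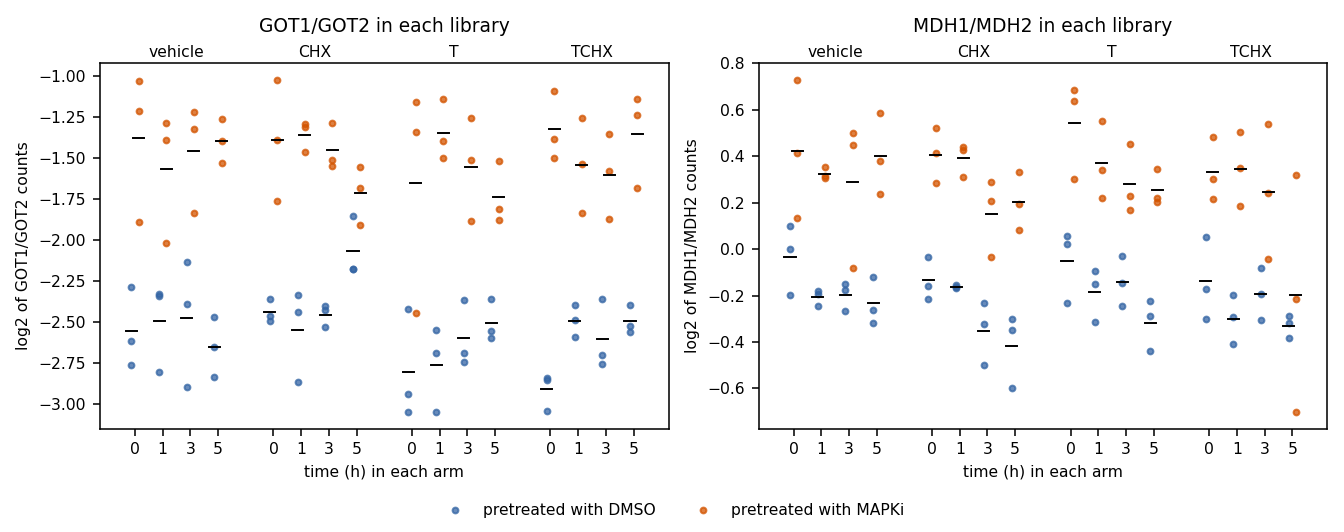
log2 of the ratio of cytosolic to mitochondrial isoenzyme counts (y axis) in each library, by arm and time (x axis), for GOT1/GOT2 on the left and MDH1/MDH2 on the right; blue points are DMSO and orange points MAPKi libraries, and black lines are means of 3. In the vehicle arm the GOT1/GOT2 ratio has a median of 0.172 in DMSO and 0.391 in MAPKi cells.

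Other genes of glutamine, glutamate and aspartate metabolism were read from 4 lists, given by counts and medians beside those of all tested genes. Of 27 genes that make or use glutamine or glutamate, 21 were tested, and at 0 h 2 were higher and 11 lower in MAPKi cells, beside 21.9% of all tested genes higher and 24.0% lower, with a median log2 difference of -0.76 against 0.03 for all tested genes. Among those with the lowest adjusted p were CTPS1 (CTP synthase, a glutamine user) and PPAT (which starts purine synthesis from glutamine). CTPS1 fell from 140.1 ± 11.0 to 40.0 ± 5.94 CPM (SD, n = 3), a log2 difference of -1.81 (edgeR, adjusted p = 1.47e-23). PPAT differed by -1.89 (edgeR, adjusted p = 2.96e-21), from 86.0 ± 5.48 to 23.0 ± 4.76 CPM. The 2 higher genes were ABAT (GABA transaminase), at 2.18 ± 0.37, and ALDH4A1, which makes glutamate from proline breakdown, at 0.53 ± 0.20, both named after their values were seen.

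Of 11 genes listed for aspartate use or a linked step, 8 were tested. Of these, 3 were higher and 5 lower in MAPKi cells at 0 h, beside the same 21.9% and 24.0% of all tested genes. Their median log2 difference was -0.99 against 0.03. CAD, which joins aspartate to carbamoyl phosphate for pyrimidines, differed by -1.36 ± 0.13 (edgeR, adjusted p = 1.99e-15) and stood at 93.1 ± 8.87 CPM in DMSO and 36.2 ± 0.987 CPM in MAPKi cells (SD, n = 3). ADSS2, which uses aspartate on the way to AMP, and ADSL, which acts on the product of that step, differed by -1.12 (edgeR, adjusted p = 2e-11) and -0.86 (edgeR, adjusted p = 6.75e-15). The other genes called, named after their values were seen, were PAICS (-1.24) and NAT8L (-1.50), which were lower, and ASL (0.49), ADSS1 (2.13) and DDO (1.21), which were higher. Of 15 further shuttle and malate genes, 11 were tested, 2 higher and 4 lower (median -0.32), beside the same shares and median of all tested genes. SLC25A10, the mitochondrial dicarboxylate carrier, was higher by 1.26 (edgeR, adjusted p = 1.22e-13), GPD2, the mitochondrial enzyme of the glycerol phosphate shuttle, was lower by -0.93 (edgeR, adjusted p = 7.5e-08), and ACLY, ATP citrate lyase, was lower by -0.49 (edgeR, adjusted p = 2.33e-06). The other higher gene of that list was SLC25A11, the α-ketoglutarate-malate carrier of the shuttle, at 0.49 ± 0.13 (edgeR, adjusted p = 0.00133), and the other lower ones were ME1 (-0.62) and GPD1 (-3.61 ± 1.36), all 3 named after their values were seen.

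The tricarboxylic acid cycle, into which oxaloacetate and α-ketoglutarate feed, had 17 of 18 listed genes tested, with 8 called higher, 9 not called and a median log2 difference of 0.32 in MAPKi cells, beside 21.9% of all tested genes higher and a median of 0.03. Among them, IDH2 rose by 0.98 (edgeR, adjusted p = 3.7e-09) and IDH3G by 0.95 (edgeR, adjusted p = 1.71e-07) on the log2 scale.

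Cycloheximide without triptolide lowered several of the measured genes in the 3 and 5 h libraries, relative to vehicle at the same times. In DMSO cells 2 of the 7 were called lower (MDH1 and MDH2) and the others were not called, beside 18.3% of all tested genes higher and 13.4% lower. In MAPKi cells 5 were called lower (GOT1, GLUD1, GLUL, MDH1 and MDH2), beside 15.9% higher and 13.9% lower. Scaled by total counts, the calls over all tested genes went from 2733 higher and 2010 lower to 2424 and 2602 in DMSO cells and from 2383 and 2078 to 3193 and 1256 in MAPKi cells. On that scale GOT2 and GLUD1 in DMSO cells were called lower as well (adjusted p = 0.0196 and 0.0169), and in MAPKi cells GOT1 and GLUL were not called (adjusted p = 0.108 and 0.0726) while SLC25A13 was higher (0.18, adjusted p = 0.0214). MDH1 ran from 245 to 296 CPM (median 280) with vehicle and from 203 to 245 CPM (median 224) with CHX in DMSO cells, a log2 difference of -0.30 ± 0.09 (edgeR, adjusted p = 0.00659). In MAPKi cells it ran from 334 to 497 CPM (median 448) and from 260 to 367 CPM (median 305), a difference of -0.46 ± 0.09 (edgeR, adjusted p = 2.78e-05). The 6 CHX and 6 vehicle libraries overlapped slightly in both.

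MDH2 differed by -0.13 ± 0.05 (edgeR, adjusted p = 0.0207) in DMSO cells and by -0.28 ± 0.05 (edgeR, adjusted p = 1.36e-06) in MAPKi cells, where it reached 241, 245 and 254 CPM at 5 h. The call in DMSO cells was lost without replicate 1 (-0.16, adjusted p = 0.0591) and without replicate 3 (-0.11, adjusted p = 0.144). GLUD1 differed by -0.21 ± 0.09 (edgeR, adjusted p = 0.0559) in DMSO cells and by -0.45 ± 0.09 (edgeR, adjusted p = 2.77e-05) in MAPKi cells. With CHX at 5 h in MAPKi cells GLUD1 was at 23.9, 24.8 and 24.4 CPM, the lowest mean of its 32 groups, and the vehicle libraries at that time were at 39.9, 38.3 and 35.3 CPM. GLUL differed by -0.42 ± 0.14 in MAPKi cells (edgeR, adjusted p = 0.0158), a call lost without replicate 2 (adjusted p = 0.0702) or replicate 3 (adjusted p = 0.133). SLC25A13 was not called, with 0.16 ± 0.07 (edgeR, adjusted p = 0.0661) in DMSO and 0.09 ± 0.07 (edgeR, adjusted p = 0.366) in MAPKi cells.

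GOT1 differed in sign between the pretreatments at 5 h but not at 3 h. At 3 h its mean was lower with CHX than with vehicle in both, at 40.5 ± 3.64 against 44.3 ± 7.07 CPM in DMSO cells and at 60.3 ± 9.08 against 68.7 ± 6.61 CPM in MAPKi cells (SD, n = 3), with overlap. With CHX at 5 h it was at 55.9, 55.9 and 55.1 CPM in DMSO cells, above the 38.8, 43.7 and 46.7 CPM of vehicle, and at 55.9, 44.4 and 43.4 CPM in MAPKi cells, below the 66.4, 60.7 and 70.0 CPM of vehicle. Over 3 and 5 h the log2 difference was 0.12 ± 0.11 (edgeR, adjusted p = 0.476; -0.01 without replicate 1) in DMSO and -0.32 ± 0.11 (edgeR, adjusted p = 0.0162) in MAPKi cells, the latter at -0.28 (adjusted p = 0.143) without replicate 3. The difference between the pretreatments was -0.44, with a 95% interval from -0.75 to -0.13, and missed the threshold (edgeR, adjusted p = 0.0531). It was called by DESeq2 (adjusted p = 0.0438), without the filter on low counts (adjusted p = 0.0398), with a replicate block (adjusted p = 0.0216) and at 5 h alone, where it was -0.82 (adjusted p = 0.00846). It was not called in the other 6 alternatives, which ran from -0.29 (total counts, adjusted p = 0.236) to -0.50 (without replicate 3, adjusted p = 0.154). By total counts, calls of this difference over all tested genes went from 693 higher and 986 lower to 1558 and 490. None of the 7 genes was called for this interaction by edgeR, 2 had an unadjusted p under 0.05 (GOT1 and MDH2) and DESeq2 called 1, beside 11.2% of all tested genes. MDH2 had a difference of -0.14, with an interval from -0.27 to -0.01, and GOT2 had 0.00 between -0.23 and 0.23.

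**Figure D3:**
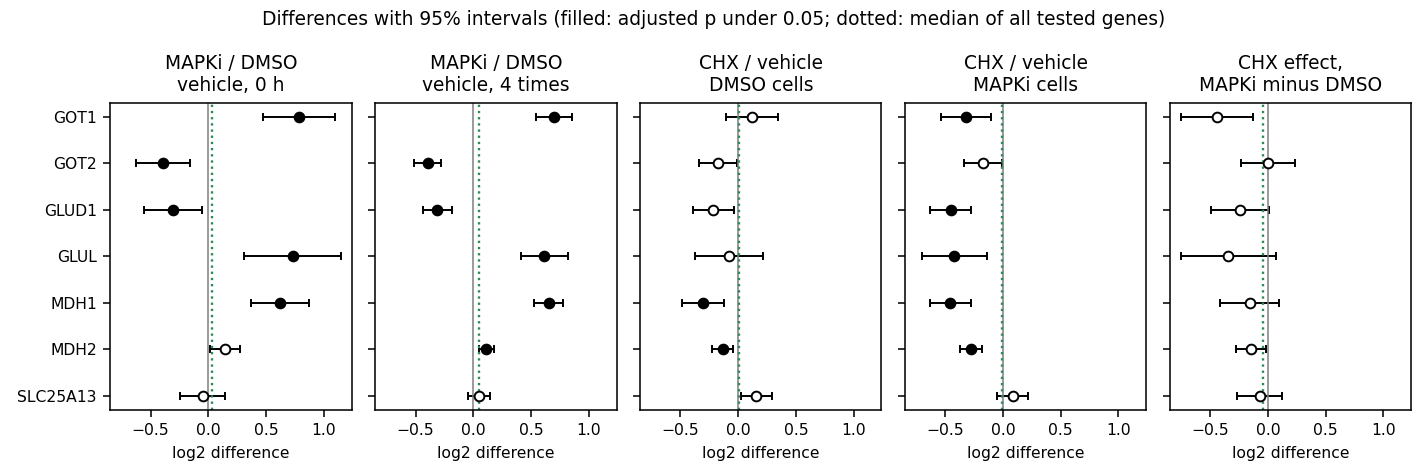
log2 differences (x axis) of each measured gene (y axis) with 95% intervals, for MAPKi against DMSO in vehicle, for CHX against vehicle in each pretreatment, and for the difference between these CHX effects; filled points passed an adjusted p under 0.05 and the dotted line is the median of all tested genes. GOT1, GLUL and MDH1 lie to the right and GOT2 and GLUD1 to the left in the MAPKi panels, and in the last panel no point is filled, with GOT1 at -0.44.

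Triptolide stops new transcripts, so the level left at 3 and 5 h shows how fast an mRNA is lost. For these libraries counts were scaled by size factors from 36 stable genes, whose relative abundance rose under triptolide at both 3 and 5 h. This is stricter than the study's wording, a rise at 3 or 5 h, which gave 526 genes, and with those GOT2 in DMSO cells (-0.26, adjusted p = 0.102) and GLUL in MAPKi cells (-0.36, adjusted p = 0.0795) were not called. The result rests on the scaling: the 36 genes put the median of all tested genes at -0.47 in DMSO and -0.59 in MAPKi cells on the log2 scale, whereas TMM put it at 0 and 0.05. In DMSO cells 4 of the 7 genes were called lower (GOT2, GLUD1, MDH1 and SLC25A13), beside 48.7% of all tested genes lower and 1.30% higher, and their median of -0.27 was nearer to 0 than that of all genes. In MAPKi cells 3 were called lower (GOT1, GLUL and SLC25A13), beside 56.1% lower and 1.28% higher, with a median of -0.26. By TMM, MDH2 in DMSO cells and GOT2, GLUD1, MDH1, MDH2 and SLC25A13 in MAPKi cells were instead called higher. Over all tested genes the calls went from 195 higher and 7273 lower to 1868 and 3093 by TMM in DMSO cells, and from 191 and 8385 to 2927 and 3088 in MAPKi cells.

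On the stable-gene scale MDH2 had the smallest differences of the 7 genes, while by TMM it was higher in both pretreatments (0.35 and 0.56). At 5 h in triptolide, DMSO cells had 102%, 91.0% and 85.7% of the vehicle level at 0 h, and MAPKi cells had 96.3%, 87.7% and 96.3%, each library set against the one with its replicate number. The median of all tested genes was 65.1 ± 1.60% and 59.2 ± 2.36% (SD, n = 3). MDH2 was not called in DMSO (-0.12 ± 0.06, edgeR, adjusted p = 0.0989) or MAPKi cells (-0.08 ± 0.06, edgeR, adjusted p = 0.26). SLC25A13 had the lowest mean left at 5 h in DMSO cells on this scale, with 64.4%, 73.4% and 69.4%, and 82.9%, 64.5% and 77.9% in MAPKi cells. Its log2 differences over 3 and 5 h were -0.49 ± 0.09 (edgeR, adjusted p = 1.94e-06) and -0.33 ± 0.09 (edgeR, adjusted p = 0.000884), the latter not called without replicate 2 (-0.25, adjusted p = 0.0663), and by TMM they were -0.01 and 0.31.

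GOT1 at 5 h in triptolide kept 84.9%, 85.8% and 81.1% in DMSO cells and 77.1%, 66.0% and 63.9% in MAPKi cells. At 3 h it kept 81.9%, 94.4% and 74.8% in DMSO cells and 76.5%, 73.9% and 80.4% in MAPKi cells, with overlap. Over 3 and 5 h the log2 differences were -0.26 ± 0.14 (edgeR, adjusted p = 0.121) and -0.46 ± 0.14 (edgeR, adjusted p = 0.00279), and the sign in MAPKi cells turned to 0.19 by TMM. MDH1 at 5 h kept 70.3%, 77.9% and 80.4% in DMSO and 73.7%, 93.3% and 83.4% in MAPKi cells. Its differences over 3 and 5 h were -0.32 ± 0.12 (edgeR, adjusted p = 0.0211) and -0.26 ± 0.12 (edgeR, adjusted p = 0.0598), against 0.16 and 0.39 by TMM. In MAPKi cells MDH1 was called lower without replicate 2 (-0.35, edgeR, adjusted p = 0.0236), with no filter on low counts (adjusted p = 0.0245) and with only the groups compared (adjusted p = 0.0437). The calls of GOT2 (adjusted p = 0.0454) and GLUD1 (adjusted p = 0.0316) in DMSO cells, and of GLUL (adjusted p = 0.0351) in MAPKi cells, all by edgeR, were near the threshold, and by TMM the 3 values were 0.22, 0.19 and 0.22. Without replicate 1 in DMSO cells GOT2 (-0.19), GLUD1 (-0.12) and MDH1 (-0.28) were not called, and without replicate 3 the same was true of GOT2 (-0.33), GLUD1 (-0.28) and MDH1 (-0.32), which left 1 call in each case. GOT2 was not called without replicate 2 either (-0.27), and GLUL in MAPKi cells was not called without replicate 1, 2 or 3 (-0.44, -0.43 and -0.41).

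The change under triptolide was set against itself between MAPKi and DMSO cells. None of the 7 genes was called by edgeR, none had an unadjusted p under 0.05 and none was called by DESeq2, beside 3.17% of all tested genes. GOT1 had a difference of -0.20 ± 0.20 (edgeR, adjusted p = 0.765) and MDH1 of 0.06 ± 0.17 (edgeR, adjusted p = 0.958). The intervals ran from -0.73 for GLUL up to 0.41 for SLC25A13, GLUD1 and MDH1, so differences of such sizes in those genes were not excluded.

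**Figure D4:**
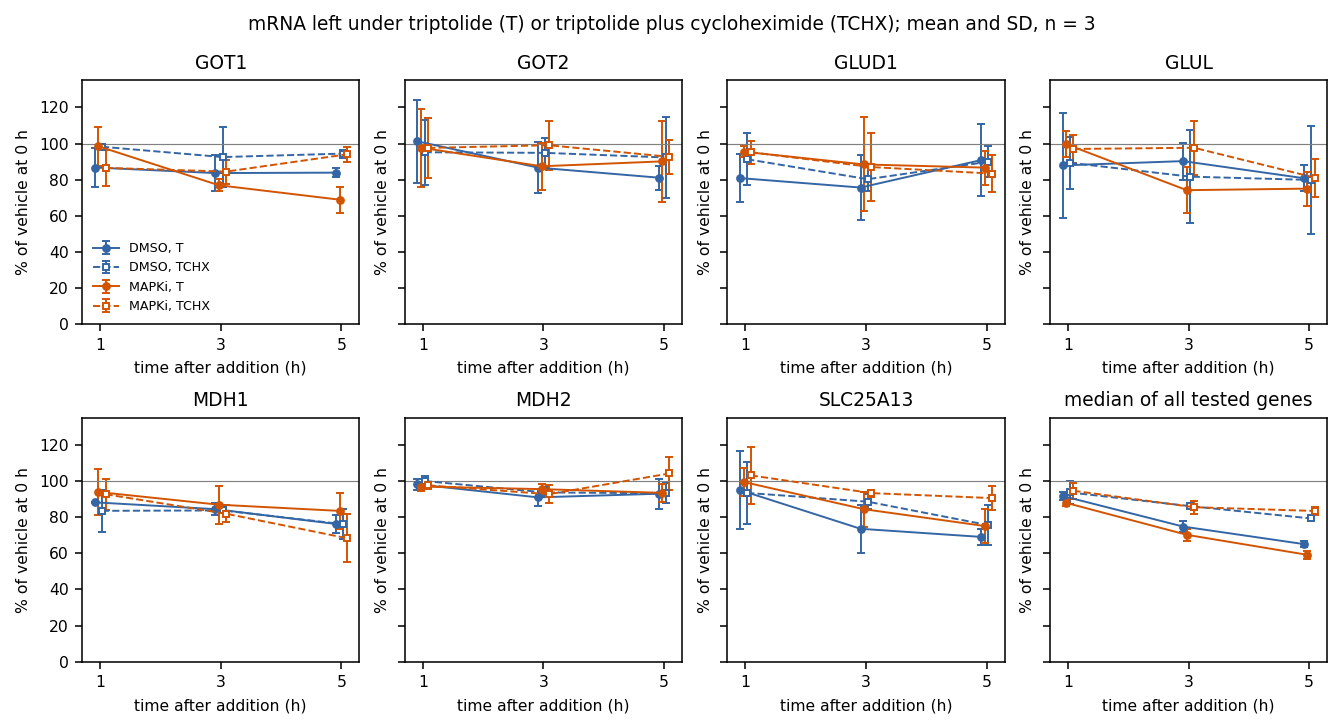
Percent of the vehicle level at 0 h left (y axis, from 0) at 1, 3 and 5 h (x axis) under triptolide alone (filled, solid) or with cycloheximide (open, dashed) in DMSO (blue) and MAPKi (orange) cells, as mean and SD of 3, scaled by the stable genes; by TMM the values of MDH2 would lie above the vehicle level in triptolide. At 5 h in triptolide the median of all tested genes is at 65.1% and 59.2%, and MDH2 at 92.9% and 93.4%.

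Adding cycloheximide to triptolide shows the decay that needs translation: an mRNA that is kept by cycloheximide is higher in TCHX than in T. Of the 7 genes, 1 (SLC25A13) was called higher in DMSO cells, beside 28.4% of all tested genes higher and 0.468% lower. In MAPKi cells 2 (GOT1 and SLC25A13) were called higher, beside 41.4% higher and 0.535% lower. The medians of the 7 genes were 0.04 and 0.12 on the log2 scale, against 0.23 and 0.34 for all tested genes. By TMM the calls over all tested genes went from 4247 higher and 70 lower to 2238 and 1044 in DMSO cells, and from 6194 and 80 to 2825 and 2261 in MAPKi cells. TMM called MDH1 and MDH2 lower in TCHX than in T in DMSO cells. In MAPKi cells it called GOT2, GLUD1 (-0.41, edgeR, adjusted p = 0.000117), MDH1, MDH2 and SLC25A13 lower.

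SLC25A13 ran from 480 to 614 normalized counts (median 555) in T and from 558 to 724 (median 626) in TCHX in DMSO cells, with overlap, a log2 difference of 0.20 ± 0.07 (edgeR, adjusted p = 0.0334). In MAPKi cells it ran from 496 to 691 (median 582) and from 626 to 726 normalized counts (median 682), a difference of 0.21 ± 0.07 (edgeR, adjusted p = 0.0142). GOT1 in MAPKi cells ran from 312 to 509 (median 442) in T and from 433 to 620 (median 510) in TCHX, a difference of 0.28 ± 0.11 (edgeR, adjusted p = 0.0357). All 3 calls were fragile. With the 526 genes that rose at 3 or 5 h none of them passed (0.20 and 0.18 for SLC25A13 in DMSO and MAPKi cells, 0.25 for GOT1, adjusted p = 0.0579, 0.0681 and 0.0556). SLC25A13 in DMSO cells lost its call without replicate 1, 2 or 3 (0.20, 0.19 and 0.19, adjusted p = 0.104, 0.149 and 0.179), GOT1 likewise (0.37, 0.23 and 0.24, adjusted p = 0.0592, 0.11 and 0.196), and SLC25A13 in MAPKi cells without replicate 2 (0.14, adjusted p = 0.293) or 3 (0.21, adjusted p = 0.0633). By TMM the signs turned, to -0.04 and -0.18 for SLC25A13 in DMSO and MAPKi cells and to -0.11 for GOT1 in MAPKi cells. The SLC25A13 value in MAPKi cells was then called lower (edgeR, adjusted p = 0.0342).

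MDH1 was lower in TCHX than in T in MAPKi cells without passing the test. In MAPKi cells at 5 h it had 3213, 2689 and 3025 normalized counts in T and 3273, 2221 and 1922 in TCHX, so that replicate 3 was the lowest, and the log2 difference over 3 and 5 h was -0.17 ± 0.10 (edgeR, adjusted p = 0.178). It passed without replicate 1 (-0.28, adjusted p = 0.0372) and when scaled by total counts (-0.39, adjusted p = 0.000346) or TMM (-0.55, adjusted p = 3.66e-07). For the difference of the cycloheximide effect under triptolide between MAPKi and DMSO cells, none of the 7 genes was called by edgeR or DESeq2 and none had an unadjusted p under 0.05, beside 7.11% of all tested genes. GLUL had the largest value of the 7, 0.36 ± 0.21 (edgeR, adjusted p = 0.375), with an interval from -0.06 to 0.79.

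The TDD index of the study divides the gap between the TCHX and T levels by the initial level, which gives the share of an mRNA lost by translation-dependent decay. As the mean of 3 and 5 h it was 0.147, 0.0733 and 0.07 for GOT1 in DMSO and 0.0721, 0.231 and 0.186 in MAPKi cells. For MDH1 it was 0.0409, -0.076 and 0.0227 in DMSO and -0.00516, -0.16 and -0.135 in MAPKi cells, and for SLC25A13 0.103, 0.104 and 0.115 in DMSO and 0.0568, 0.197 and 0.112 in MAPKi cells. The median of all tested genes was 0.122 ± 0.0342 in DMSO and 0.183 ± 0.0116 in MAPKi cells (SD, n = 3), and MDH1 and GLUD1 had means below 0 in MAPKi cells. The difference between these medians rests on the scaling: over all tested genes the median MAPKi minus DMSO difference of the index was 0.06, and -0.01 by TMM.

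MAPKi against DMSO, the index differed by 0.20 ± 0.10 for GLUL (limma, adjusted p = 0.422), by -0.10 ± 0.05 for MDH1 (limma, adjusted p = 0.449) and by 0.07 ± 0.06 for GOT1 (limma, adjusted p = 0.675). None of the 7 genes was called by limma, beside 0.0957% of the 11491 genes tested. At an unadjusted p of at most 0.05 there were also 0 of 7, beside 13.9% of tested genes higher and 1.41% lower in MAPKi cells. The intervals were wide, from -0.05 to 0.44 for GLUL and from -0.06 to 0.11 for MDH2.

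**Figure D5:**
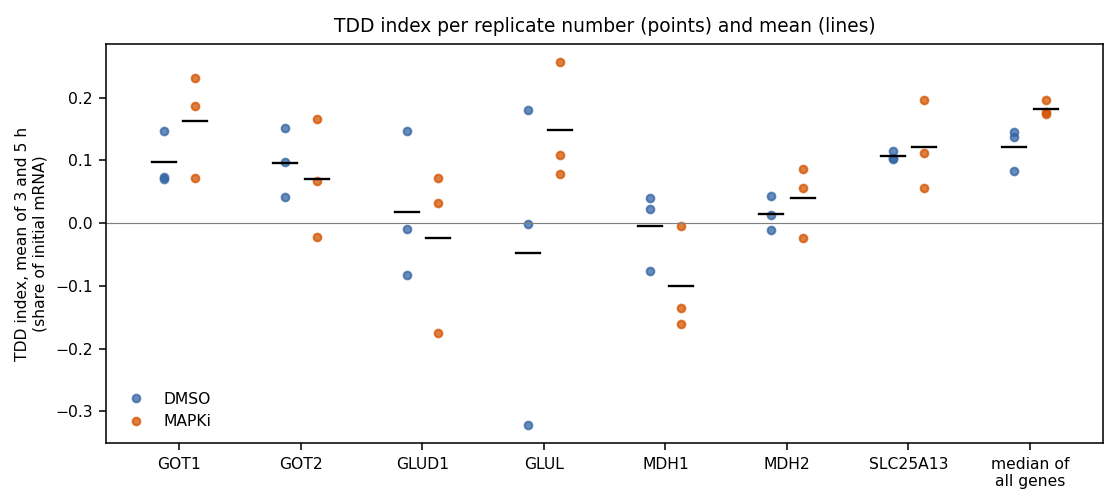
TDD index (y axis, share of the initial mRNA, mean of 3 and 5 h) of each measured gene and of the median of all tested genes (x axis) in DMSO (blue) and MAPKi (orange) cells; points are replicate numbers and lines are means of 3. The all-gene median is 0.122 in DMSO and 0.183 in MAPKi cells, and MDH1 has a mean of -0.10 in MAPKi cells.

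Coding sequences were read for aspartate and glutamate, which were among the amino acids whose intracellular levels the study measured. Codons for aspartate and glutamate made up 12.3% of MDH1, 12.3% of GLUL, 12.01% of GLUD1 and 10.9% of GOT1, and 9.93% of SLC25A13, 9.77% of GOT2 and 8.58% of MDH2, beside a median of 11.4% over 19055 coding genes. MDH2 thus lay at the 19.7th percentile and GLUL at the 62.0th. Of its glutamate codons MDH1 wrote 72.2% as GAA, at the 92.5th percentile of coding genes, and SLC25A13 69.2%, at the 89.3rd, whereas GOT1 wrote 26.9%, at the 32.8th. The isoenzyme pairs therefore differed in opposite ways, with more GAA in mitochondrial GOT2 (57.1%) than in GOT1 and more in cytosolic MDH1 than in MDH2 (50%).

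Over the 32 groups, ranked by mean CPM, the libraries of neighbouring groups overlapped in all 31 neighbouring pairs for GOT1, GOT2, GLUL and SLC25A13, in 30 for GLUD1 and MDH1 and in 26 for MDH2, so most steps in the order were within the spread. The highest mean was in triptolide at 5 h for each gene, in MAPKi cells for GOT1, GLUL, MDH1, MDH2 and SLC25A13 and in DMSO cells for GOT2 and GLUD1, on a scale relative to genes that triptolide removed. The highest mean over the lowest was 3.01-fold for MDH1, 2.46-fold for GOT1, 2.42-fold for GLUD1, 2.37-fold for GLUL, 2.2-fold for MDH2, 1.93-fold for GOT2 and 1.44-fold for SLC25A13. The group means share libraries, pretreatment and scaling, and correlations over them are a description only. GOT1 followed GLUL (Pearson r = 0.907) and MDH1 (r = 0.873), and GOT2 followed GLUD1 (r = 0.8), while GOT1 and GOT2 had r = -0.454 (n = 32 group means).

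Outside the 9 genes, the patterns most like GOT1 were those of TUBB3 (r = 0.962) and MYH14 (r = 0.952), and for GOT2 those of AP2S1 (r = 0.984) and TMX2 (r = 0.983). MDH1 was most like RCN2 (r = 0.976) and FTL (r = 0.976), and MDH2 most like RPLP1 (r = 0.971) and OAZ1 (r = 0.964). GLUD1 was most like PAPOLA (r = 0.931) and VIM (r = 0.929), GLUL most like LINC01426 (r = 0.933) and HBE1 (r = 0.931), and SLC25A13 most like STYXL1 (r = 0.859) and CHD4 (r = 0.841), the weakest matches of the 7 genes.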

How the data were processed

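The authors deposited raw counts, whole numbers of reads per gene for 96 QuantSeq libraries. Their notes and methods name fastp 0.20.1, HISAT2 2.2.1 and HTSeq 0.13.5 on GRCh38, with exon counting of forward reads; strand use and molecular identifiers are not given in the sources used here. Counts were fitted in R 4.3.3 with edgeR 4.0.16 (filterByExpr, 14948 genes, quasi-likelihood, 1 mean per group over 96 libraries, two-sided, Benjamini-Hochberg over all genes). TMM scaled contrasts without triptolide. Size factors of DESeq2 1.42.0 on 36 stable genes (above 0.2 CPM, rise of at least 1.1 times in triptolide at 3 and 5 h; the study words this as 3 or 5 h, run as an alternative) scaled the others. The TDD index was fitted with limma 3.58.1 on pretreatment, time and replicate (ordinary, unmoderated statistic per gene), for genes with at least 10 normalized counts initially. All 9 genes are named, and of each other list the 3 with the lowest adjusted p. Of these, 2 genes are not reported here. Members and lists were chosen with earlier results of these data known. On simulated data edgeR recovered 77% of 2-fold and 99% of 4-fold differences of MAPKi at 0 h, with 13 false calls among 14948 genes. The 7 genes differed by less than 2-fold at 0 h, so this recovery does not cover their sizes. All simulated libraries were independent, with a set spread, and were scaled by total counts. For the TDD index the simulation raised the TCHX level of MAPKi cells 2-fold or 4-fold. Of these, limma recovered 22% and 85%, with 7 false calls among 11446 genes. The median index differences were 0.99 and 3.01, and differences of the size seen in the 7 genes were not simulated. Libraries of a group differed beyond sampling noise (chi-square per degree of freedom 2.94 to 14.5), so none was a copy. No columns were left unmatched.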

Additional observations from a re-analysis of the deposited data

How the results depend on the processing

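Of the results for single genes under the alternatives, 821 kept direction and call, 63 lost and 28 gained a call, 70 others moved and 26 turned sign; of the counts of genes called, 111 stayed and 33 moved. The higher GOT1, GLUL and MDH1 after MAPKi kept their calls in all 9 alternatives at 0 h. Leaving out 1 replicate number gave 3 to 4 calls for MAPKi at 0 h (5 with all), 1 to 3 for CHX in DMSO cells (2), 3 to 5 for CHX in MAPKi cells (5), 1 to 3 for triptolide in DMSO cells (4), 0 for TCHX against T in DMSO cells (1), and 0 to 2 in MAPKi cells (2). CHX in DMSO cells gave 1 call with no filter, 4 with only the groups compared, 1 at 5 h only and 4 with total counts. The difference of the CHX effect gave 1 call (GOT1) with DESeq2, with no filter and at 5 h only. Triptolide in DMSO cells gave 1 call with TMM and 1 with total counts, and in MAPKi cells 5 with TMM and 1 with total counts, all of them higher. When the T libraries at 0 h served as the start, DMSO cells gave 2 calls. With that start, MAPKi cells gained GOT2 (-0.48) and MDH1 (-0.29) and lost GLUL (-0.39). In those T libraries at 0 h GOT2 was at 1573, 2578 and 1354 normalized counts. The highest value was from replicate 2, the shallowest of the 96 libraries, and a fit with that start but without replicate 2 was not run. TCHX against T in DMSO cells gave 0 calls at 5 h only, with no filter, with only the groups compared and with stable genes rising at 3 or 5 h. In MAPKi cells it gave 1 with no filter, 1 with only the groups compared and 0 with stable genes rising at 3 or 5 h. TMM gave 2 calls in DMSO and 5 in MAPKi cells, all of them lower in TCHX than in T. By total counts MDH2 in DMSO cells and GLUD1, MDH1 and MDH2 in MAPKi cells were called lower. The cause of these changes was not tested.

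Signs turned for triptolide and TCHX under another scaling, which moves all genes together. Triptolide in DMSO cells gave, by TMM, 0.22 for GOT2, 0.19 for GLUD1, 0.16 for MDH1 and 0.35 for MDH2, and by total counts 0.058, 0.036, 0.00081 and 0.19. In MAPKi cells it gave, by TMM, 0.19 for GOT1, 0.45 for GOT2, 0.43 for GLUD1, 0.22 for GLUL, 0.39 for MDH1, 0.56 for MDH2 and 0.31 for SLC25A13, and by total counts 0.27 for MDH2 and 0.022 for SLC25A13. TCHX against T in DMSO cells gave -0.21 for MDH2 and -0.039 for SLC25A13 by TMM, and -0.13 for MDH2 by total counts. In MAPKi cells it gave -0.11 for GOT1, -0.26 for GOT2, -0.33 for MDH2 and -0.18 for SLC25A13 by TMM, and -0.17 for MDH2 and -0.017 for SLC25A13 by total counts.

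The main edgeR fit did not pair libraries by replicate number, and whether they were paired was not settled. Deviations of same-numbered libraries correlated between -0.64 and 0.68 (median 0.058, 580 of 1488 over 0.1). Still, 63 of 96 libraries correlated best with their own number, a hint from the data. Among the vehicle libraries GOT1 was lowest in replicate 2 at each time in MAPKi cells (60.6, 60.1, 62.7 and 60.7 CPM). In DMSO cells it was lowest in replicate 1 at 1, 3 and 5 h but not at 0 h. The main tests counted same-numbered libraries as independent. Each replicate number also goes with its own prefix in the column names of the counts, whose meaning is not given. The labels do not say what the numbers share, although the study kept replicate as a term in its TDD model. With a replicate block the difference of the CHX effect gave 1 call (GOT1, adjusted p = 0.0216), MDH1 was also called under triptolide (-0.25) and TCHX against T (-0.18) in MAPKi cells, and the other 88 results kept their calls. Without the replicate term, the 7 TDD results kept theirs. ASS1 and SLC25A12 had too few counts to test, and no spike-in counts were used here.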
